A study of Mus musculus with 12 samples.

Results

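Slc1a5 and Slc7a1 carry amino acids across the plasma membrane, and their RNAs stood apart between Abca4 knockout and control mice in RNA bound to rod ribosomes. They were examined here with 8 other amino acid transporter genes: Slc7a5, Slc7a11, Slc3a2, Slc38a1, Slc38a2, Slc38a3, Slc6a6 and Slc1a7. The 10 genes were taken by symbol from a table of 56748 entries. All 10 were measured in each of 12 libraries and all 10 passed the filter on low values in every comparison. The set was selected on the rod genotype difference of Slc1a5 and Slc7a1, so the members' values of that difference are a description without p-values, and nothing is read from counts of members called in it.

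ABCA4 is a lipid transporter of photoreceptor outer segments, and its loss in mice is a model of Stargardt disease. Retinas of mice aged 2 months gave 4 groups of 3 libraries. The Abca4Ko mice carried RiboTag, Abca4-/- and i75-Rod-Cre. The littermate controls carried RiboTag and i75-Rod-Cre with intact Abca4. Both genotypes thus had the rod Cre, which is driven by the rhodopsin promoter, and the HA-tagged ribosomal protein that it switches on in rods. From each genotype, RNA came from the lysate before pull-down (called retina) and from ribosomes pulled down by the tag (called rod TRAP, for translating ribosome affinity purification). The labels number the libraries but do not say whether each came from separate animals, so p-values measure the spread between these libraries. The sex of each library is not in the labels.

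Scaled counts, which the authors set to nearly the same total in each library of a fraction, summed to between 17096515 and 17097707 per rod TRAP library and between 17860761 and 17862326 per retina library. The original depth is therefore not shown by these totals. Summed TPM (a transcript's share after division by its length) of 12 rod markers was 215214 to 242176 in rod TRAP libraries and 93977 to 125599 in retina libraries. The 11 bipolar markers summed to 378 to 446 TPM in rod TRAP, against 1126 to 2272 in retina. For Abca4 itself, the control rod TRAP libraries held 61017, 53193 and 53533 scaled counts, against 195, 365 and 13156 in the rod TRAP libraries labelled Abca4Ko. The library labelled Abca4Ko replicate 3 held 23.5% of the control mean in rod TRAP and 21.3% in retina. The rod TRAP genotype values of Slc1a5, Slc7a1 and Slc38a1 and some fraction results are also given without it. The retina genotype values of Slc1a5, Slc7a1 and Slc7a11 are not.

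Cells import amino acids through families that differ in what they carry and what drives them. Slc1a5 (ASCT2) exchanges glutamine and other neutral amino acids together with sodium. Slc7a1 (CAT1) carries the cationic amino acids arginine, lysine and ornithine. Slc7a5 (LAT1) exchanges leucine and other large neutral amino acids, and Slc7a11 (xCT) brings in cystine in exchange for glutamate. Both of these work only when joined to the heavy chain Slc3a2 (4F2hc). Slc38a1, Slc38a2 and Slc38a3 (SNAT1, SNAT2 and SNAT3) move glutamine and other neutral amino acids with sodium. Slc6a6 is the taurine transporter, whose loss leads to photoreceptor degeneration in mice, and Slc1a7 (EAAT5) is a glutamate transporter of photoreceptor and bipolar terminals.

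Starved cells raise several of these genes through the transcription factor ATF4, which binds with C/EBP partners at a composite element. RefSeq promoter windows of 300 bases around the start (build GRCm38.p6) were found for 5 of the 10 members, and not for Slc1a5, Slc38a1, Slc38a3, Slc6a6 or Slc7a5. The windows were searched on both strands for the composite element (TGATGNAA), the antioxidant response element (TGACNNNGC) and the E-box (CACGTG). Of 32851 mouse promoter windows, 3.97% held the composite element, 12.4% the antioxidant element and 7.15% the E-box. The Slc7a11 window (chr3:50443564-50443863, minus strand) held 2 composite elements, in opposite orientations. The upstream window of Slc7a1 (chr5:148399855-148400154, minus strand) held 1 antioxidant element, and its other listed window held none of the 3 motifs. Slc38a2 held 1 antioxidant element, Slc1a7 held 1 E-box, and Slc3a2 held none of the 3. The windows of Slc7a11 and Slc7a1 are shown because, among members with a window, these genes had the highest and the lowest log2 fold change between genotypes in rod TRAP. Capitals mark the matches, none of which overlap each other, and a match says only that the letters are there.
Slc7a11: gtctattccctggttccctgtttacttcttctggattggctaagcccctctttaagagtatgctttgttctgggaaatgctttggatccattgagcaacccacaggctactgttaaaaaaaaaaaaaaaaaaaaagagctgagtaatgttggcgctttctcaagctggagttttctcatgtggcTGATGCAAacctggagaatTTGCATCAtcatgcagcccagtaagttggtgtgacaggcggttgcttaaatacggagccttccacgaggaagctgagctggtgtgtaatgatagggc
Slc7a1: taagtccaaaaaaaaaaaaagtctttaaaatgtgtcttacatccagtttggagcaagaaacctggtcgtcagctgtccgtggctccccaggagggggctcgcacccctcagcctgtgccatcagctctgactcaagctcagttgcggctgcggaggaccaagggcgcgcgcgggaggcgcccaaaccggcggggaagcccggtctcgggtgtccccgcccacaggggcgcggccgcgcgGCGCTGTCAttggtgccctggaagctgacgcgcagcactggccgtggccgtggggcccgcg

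In control rod TRAP, the members spanned a wide range of mean TPM, the unit in which levels of different genes can be compared. Slc6a6 was highest at 1403 ± 44.6 TPM (SD, n = 3 for all levels here), followed by Slc38a3 at 605 ± 26.1, Slc3a2 at 169 ± 12.3 and Slc1a7 at 129 ± 4.07. Slc38a2 had 45.0 ± 3.34 TPM and Slc7a5 had 19.1 ± 1.55. No 2 neighbours in this upper order overlapped between libraries. Slc7a1 at 8.87 ± 1.01, Slc38a1 at 7.20 ± 0.600 and Slc1a5 at 6.50 ± 0.872 TPM overlapped with their neighbours, and Slc7a11 was listed at 0 to 0.1. In Abca4Ko rod TRAP the first 5 places were the same. Slc1a5 came sixth at 17.0 ± 5.25 TPM and overlapped Slc7a5 at 16.8 ± 5.69, which in turn overlapped Slc38a1 at 13.2 ± 8.50. Slc7a1 came ninth at 4.83 ± 1.07, apart from both neighbours. The retina groups had the same 4 genes on top, with Slc6a6 at 771 ± 136 TPM in control and 711 ± 67.5 in Abca4Ko.

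**Figure D1:**
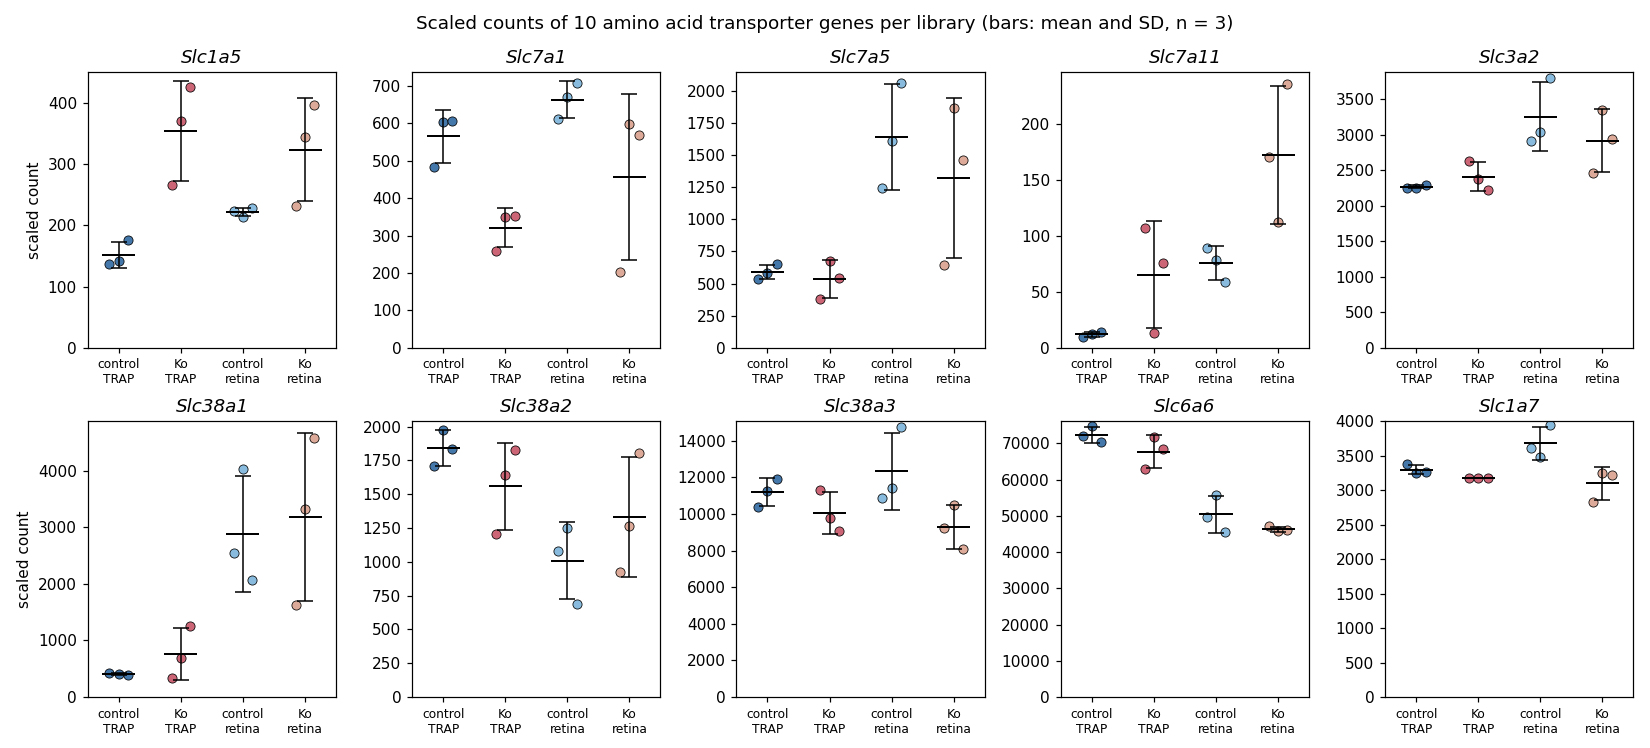
Scaled counts (vertical axes, linear from 0) of the 10 transporter genes in each of the 12 libraries, with the mean and SD of 3 libraries per group; Ko stands for Abca4Ko and TRAP for rod TRAP. The Slc1a5 points of Abca4Ko rod TRAP (266 to 426) lie above those of control (137 to 176), and the Slc7a1 points (260 to 353) lie below (484 to 607).

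The comparison of genotypes in rod TRAP asks which ribosome-bound messages differ in rods without ABCA4. Slc1a5 had 137, 142 and 176 scaled counts in the control libraries and 266, 370 and 426 in the Abca4Ko libraries. Each Abca4Ko library was above each control, and the ratio of means was 2.33. Its TPM went the same way, from 5.9, 6.1 and 7.5 in control to 12.2, 16.2 and 22.6 in Abca4Ko. The fitted difference was a log2 fold change of 1.17 (SE 0.16), on the scale of log2(CPM + 0.5), where CPM is the scaled count as a share of the rescaled library total. It was 1.04 without Abca4Ko replicate 3 and ranged from 1.04 to 1.31 over 15 alternative settings.

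Slc7a1 had 484, 604 and 607 scaled counts in control rod TRAP and 260, 350 and 353 in Abca4Ko rod TRAP. The groups did not overlap, and the 3 Abca4Ko libraries held 46.0%, 61.9% and 62.5% of the control mean. The TPM values were 7.7, 9.5 and 9.4 in control and 3.6, 5.4 and 5.5 in Abca4Ko. The log2 fold change was -0.80 (SE 0.13), -0.85 without Abca4Ko replicate 3, and between -0.90 and -0.70 over the 15 alternatives. The set was chosen on these opposite directions of Slc1a5 and Slc7a1 in the same 6 libraries, so they are a description and not a result.

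The threshold used here was an adjusted p under 0.05 (limma, Benjamini-Hochberg adjustment over all genes). It was passed by 1.13% of 13104 genes tested. Of the 10 members only Slc1a5 (higher) and Slc7a1 (lower) passed. Their selection on this contrast fixed that outcome, so nothing is read from the count. On the fitted scale of log2(CPM + 0.5) the groups did not overlap for 3 members, the third being Slc6a6, beside 17.6% of all genes. Slc1a7 was free of overlap in scaled counts and TPM but not on that scale, and Slc6a6 the reverse. The median log2 fold change of the 10 members was -0.07.

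The heavy chain Slc3a2 had 2253, 2252 and 2289 scaled counts in control rod TRAP and 2625, 2382 and 2222 in Abca4Ko, a log2 fold change of 0.09 (SE 0.10). Its partner Slc7a5 had 535, 585 and 649 in control and 382, 677 and 542 in Abca4Ko, a log2 fold change of -0.17 (SE 0.15). For both genes the groups overlapped. The other partner, Slc7a11, had 10, 12 and 14 scaled counts in the control libraries and 107, 13 and 76 in Abca4Ko, so that 2 of 3 Abca4Ko libraries lay above the controls. In TPM, however, the same libraries were listed at 0.1, 0 and 0.1 in control and at 0, 0.8 and 0.1 in Abca4Ko, and the library that was lowest in scaled counts was highest in TPM. The 2 tables thus ranked the Abca4Ko libraries differently, and the Slc7a11 level in rod TRAP is uncertain. The GENCODE M21 annotation of build GRCm38 lists 3 processed pseudogenes, 1 antisense gene and 1 unclassified transcript within the span of Slc7a11.

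The SNAT genes did not share a direction in rod TRAP. Slc38a1 had 430, 411 and 392 scaled counts in the control libraries and 341, 682 and 1261 in Abca4Ko. The Abca4Ko libraries lay on both sides of the controls, with the largest value in replicate 3, and the log2 fold change was 0.69 (SE 0.44). It was 0.26 without Abca4Ko replicate 3 and 1.12 without Abca4Ko replicate 1. Slc38a2 had 1710, 1976 and 1832 in control and 1204, 1642 and 1830 in Abca4Ko (log2 fold change -0.25, SE 0.12). Slc38a3 had 10409, 11276 and 11936 in control and 11338, 9779 and 9076 in Abca4Ko (log2 fold change -0.15, SE 0.12). These 3 genes overlapped between genotypes.

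The taurine and glutamate carriers differed little. Slc6a6 had 72146, 74703 and 70397 scaled counts in control rod TRAP and 62850, 71773 and 68466 in Abca4Ko, a log2 fold change of -0.09 (SE 0.08). Slc1a7 had 3381, 3249 and 3272 in control and 3178, 3175 and 3173 in Abca4Ko. All 3 Abca4Ko values of Slc1a7 lay just below the controls, with a log2 fold change of -0.05 (SE 0.08). The ratios of group means were 0.935 for Slc6a6 and 0.962 for Slc1a7.

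**Figure D2:**
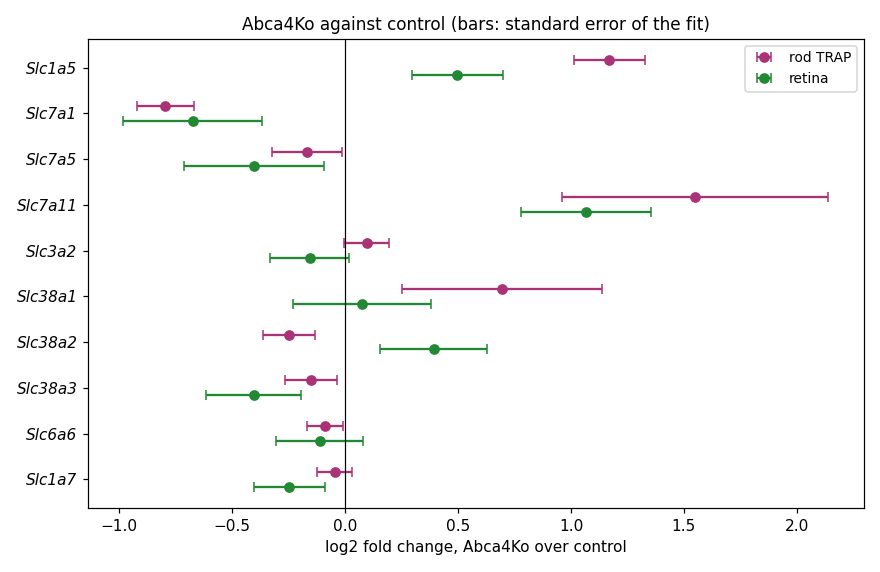
Log2 fold change of Abca4Ko over control (horizontal axis) for the 10 transporter genes in rod TRAP and in retina; bars are the standard error of the fit, from 3 libraries per group. Slc1a5 lies at 1.17 in rod TRAP and 0.50 in retina, Slc7a1 at -0.80 and -0.67, and Slc7a11 has the widest bar in rod TRAP.

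Markers of other cells were summed in the same rod TRAP libraries. The 9 cone markers summed to 566 to 701 TPM in Abca4Ko and to 455 to 478 TPM in control, and 1 of 9 rose by the test (Gngt2, a cone transducin subunit, log2 fold change 0.69, limma adjusted p = 0.0224). No cone marker was at 0 in any library. The 13 Müller glia markers summed to 105 to 160 TPM in Abca4Ko and to 99.3 to 126 in control, and the 10 vascular markers to 2.7 to 5.2 and 3.1 to 4.2. Horizontal cell markers (5 genes) summed to 48.2 to 60.7 TPM in Abca4Ko and 44.5 to 47.7 in control. In each rod TRAP library 1 to 3 of these 5 were at 0 TPM. Only 2 were tested, with 0 called by limma and a median log2 fold change of 0.04. The part of cone and horizontal cell RNA in the Slc1a5 and Slc7a1 values was not tested. In such bulk samples, fewer cells of a type and less RNA per cell cannot be told apart.

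The retina libraries ask whether the same differences were seen in RNA of all retinal cells. By the limma test over 16964 genes, of which 0.106% passed, 0 of 10 members passed in retina, and 2 of 10 had an unadjusted p under 0.05, as did 12.0% of all genes. Slc1a5 had 223, 214 and 228 scaled counts in control retina and 231, 344 and 396 in Abca4Ko retina. The groups did not overlap, but Abca4Ko replicate 1 lay at 104% of the control mean, and the log2 fold change of 0.50 (SE 0.20) gave limma adjusted p = 0.400. Slc7a1 had 611, 670 and 708 in control and 202, 598 and 569 in Abca4Ko, and its fitted log2 fold change was -0.67 (SE 0.31), at limma adjusted p = 0.417. Its low value came from Abca4Ko replicate 1, and without that library the log2 fold change was -0.25. Both signs were those of rod TRAP, but retina libraries bear the same numbers as the rod TRAP libraries and may come from the same mice.

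Slc7a11, the cystine carrier, had 89, 78 and 59 scaled counts in control retina and 170, 112 and 235 in Abca4Ko retina. All 3 Abca4Ko libraries lay above the controls (log2 fold change 1.07, SE 0.29, limma adjusted p = 0.400). In TPM the groups overlapped, at 0.7, 0.6 and 0.4 in control and 0.3, 0.9 and 1 in Abca4Ko. The remaining members had log2 fold changes between -0.41 for Slc38a3 and 0.39 for Slc38a2, with limma adjusted p from 0.432 to 0.919. Without overlap in log2(CPM + 0.5) were 5 of 10 members, 2 higher (Slc1a5 and Slc7a11) and 3 lower (Slc7a1, Slc38a3 and Slc1a7), beside 19.9% of all genes.

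Abca4Ko retina replicate 1 was also low in the markers of inner retinal cells. Its bipolar markers summed to 1126 TPM, against 2187 and 2259 in the other Abca4Ko libraries and 1452 to 2272 in control. Its 9 amacrine markers summed to 640 TPM, against 956 to 1222 in control retina. Cone markers summed lower in every Abca4Ko retina library (1386.5 to 1868 TPM) than in every control (1900 to 2217), the reverse of rod TRAP, with 0 of 9 called by limma. The same library had the lowest Slc7a5 value, 643 scaled counts against 1862 and 1465 in Abca4Ko and 1240, 1609 and 2063 in control. It also had the lowest Slc38a1 value, 1629 against 3320 and 4580 in Abca4Ko and 2548, 4032 and 2073 in control. Whether the makeup of that library bears on Slc7a1, Slc7a5 and Slc38a1 was not tested.

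The difference between the genotype effects in rod TRAP and retina (the interaction, positive where Abca4Ko raised a gene more in rod TRAP) was 0.66 (SE 0.26) for Slc1a5 and -0.15 (SE 0.36) for Slc7a1 on the log2 scale. For Slc7a1 it was -0.60 without Abca4Ko retina replicate 1, but 0.09 without Abca4Ko retina replicate 2 and 0.007 without replicate 3. No direction is therefore given for Slc7a1. The interaction was -0.67 (SE 0.29) for Slc38a2. Since the interaction includes the contrast that chose the set, these are descriptions. The limma fit over 17273 genes called 0.00579% of them, and 0 of 10 members. At an unadjusted p under 0.05 it had 2 of 10 members and 1952 of all genes (11.3%).

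The comparison of fractions shows which transporter messages were on rod ribosomes relative to the whole retina. This contrast did not choose the set, but its rod TRAP libraries also served in the one that did. The fraction values of Slc1a5 and Slc7a1 are thus not independent of that choice in either genotype. In control mice 8 of 10 members passed the limma test, 5 higher in rod TRAP and 3 lower, beside 75.4% of 16286 genes, so the share of members called was close to that of all genes. Slc38a2 was higher by a log2 fold change of 1.61 (SE 0.17; adjusted p = 2.36e-06 in limma). Its scaled counts were 1710, 1976 and 1832 in rod TRAP and 1083, 1247 and 691 in retina. Slc6a6 was higher by 1.24 (SE 0.11, limma adjusted p = 2.61e-07), from 49833, 55761 and 45623 in retina to 72146, 74703 and 70397 in rod TRAP. For both genes every rod TRAP library was above every retina library, and the direction was the same in each alternative run.

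Slc38a1 had the largest fall among members, with 430, 411 and 392 scaled counts in rod TRAP and 2548, 4032 and 2073 in retina (log2 fold change -2.03, SE 0.18, limma adjusted p = 3.71e-07). Slc38a1 and Slc38a2 are the nearest coding neighbours of each other on the same strand of chromosome 15, yet lay on opposite sides of this comparison. Slc7a11 was lower by a log2 fold change of -1.48 (SE 0.21; adjusted p = 3.27e-05 in limma), its retina libraries holding 59 to 89 scaled counts against 10 to 14 on rod ribosomes. Slc7a5 was lower by -0.73 (SE 0.17, limma adjusted p = 0.00187), its retina libraries holding 1240 to 2063 against 535 to 649. The heavy chain Slc3a2 that both bind did not pass (log2 fold change 0.20, SE 0.13, limma adjusted p = 0.203). These 3 falls kept their direction and call under each alternative in which they were tested. For Slc7a11 the size is uncertain, from -1.96 to -0.89 over 14 alternatives. Its mean in control rod TRAP, 0.856 CPM, lies near the 0.5 CPM added before the logarithm, and it was not tested in TPM.

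Slc38a3 (0.58, SE 0.14), Slc1a7 (0.55, SE 0.12) and Slc7a1 (0.47, SE 0.14) were higher in control rod TRAP by the fit (limma adjusted p = 0.00222, 9.20e-04 and 0.00825), but with the scaling as deposited each turned slightly below 0, to -0.07, -0.09 and -0.17. That scaling moved the median of all genes from -0.03 to -0.62. Relative to those medians the 3 genes lay above the typical gene. The call of Slc7a1 was also lost in TPM (0.13, adjusted p = 0.561), in the fit of 12 libraries (0.38, 0.190) and without rod TRAP replicate 2 (0.42, 0.0504), and that of Slc38a3 in TPM (0.26, 0.0614). Slc1a5 was at 0.15 (SE 0.16, limma adjusted p = 0.427) and at -0.47 with the scaling as deposited, so no direction is given for it in control mice. The scaling as deposited split the calls of all genes into 3415 higher and 9549 lower, against 5968 and 6317 in the fit. On the reference annotation, 1 of the coding genes that flank Slc38a3 is Gnat1, the rod transducin alpha subunit, which lies on the same strand without overlap.

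**Figure D3:**
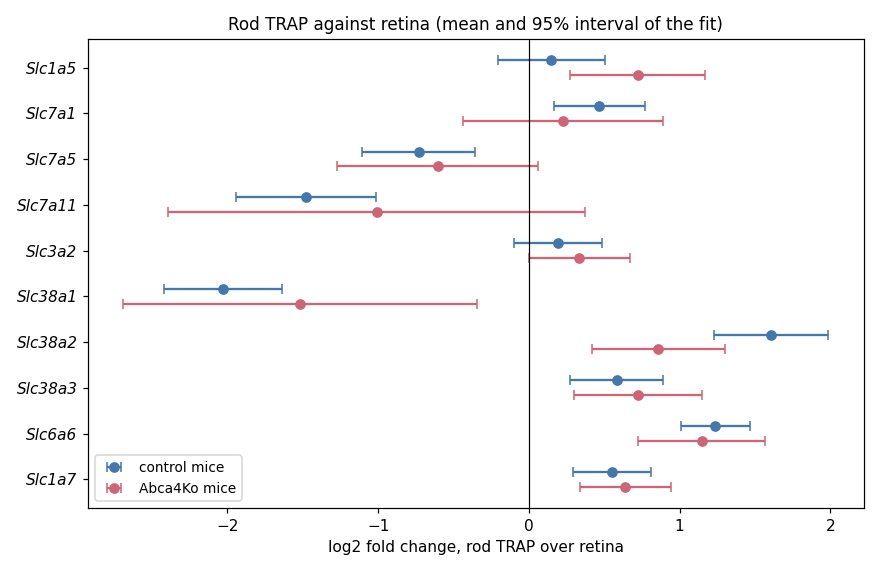
Log2 fold change of rod TRAP over retina (horizontal axis) for the 10 transporter genes in control and in Abca4Ko mice, with the 95% interval of the fit from 3 libraries per group. Slc38a2 and Slc6a6 lie above 0 and Slc38a1 below it in both genotypes, and Slc1a5 lies at 0.15 in control and 0.72 in Abca4Ko; with the scaling as deposited, Slc7a1 and Slc3a2 fall below 0 in both, and Slc1a5, Slc38a3 and Slc1a7 do so in control.

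In Abca4Ko mice 6 of 10 members passed, 5 higher and 1 lower, beside 64.1% of 16036 genes. Slc6a6 (1.15, SE 0.19), Slc38a2 (0.86, SE 0.20), Slc38a3 (0.72, SE 0.19) and Slc1a7 (0.64, SE 0.14) were higher in rod TRAP, with limma adjusted p = 3.17e-04, 0.00305, 0.00649 and 0.0017. With the scaling as deposited the log2 fold changes of Slc38a2, Slc38a3 and Slc1a7 were 0.32, 0.18 and 0.10 and were not called (adjusted p = 0.292, 0.289 and 0.474). Slc38a2 was not called in TPM (0.60, adjusted p = 0.111) and Slc38a3 not without both libraries of replicate 3 (0.64, 0.0544). Slc38a1 was lower (-1.52, SE 0.49, limma adjusted p = 0.0305). That call was lost without rod TRAP replicate 2 (adjusted p = 0.0980), retina replicate 2 (0.0976) or retina replicate 3 (0.108), and with no filter on low values (0.0521).

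Slc1a5 was higher in Abca4Ko rod TRAP than in Abca4Ko retina by a log2 fold change of 0.72 (SE 0.20; adjusted p = 0.00906 in limma). The scaled counts were 266, 370 and 426 in rod TRAP and 231, 344 and 396 in retina, and the groups overlapped before rescaling. This contrast shares the Abca4Ko rod TRAP libraries on which Slc1a5 was chosen, so it is not independent of that choice. With the scaling as deposited the log2 fold change was 0.20 (adjusted p = 0.515), in TPM it was 0.40 (adjusted p = 0.292), and without both libraries of replicate 3 it was 0.68 (adjusted p = 0.0582). The call was also lost without rod TRAP replicate 3 (adjusted p = 0.0517) or retina replicate 1 (0.0583). Slc7a1 was at 0.23 (limma adjusted p = 0.524) and turned to -0.30 with the scaling as deposited and to -0.27 without retina replicate 1.

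Same-numbered rod TRAP and retina libraries deviated together in both genotypes. With the replicate number as a block, 9 of 10 members passed in Abca4Ko mice, 6 higher and 3 lower. The added calls were Slc7a5 (-0.61, limma adjusted p = 6.53e-04), Slc7a11 (-1.01, 0.00337) and Slc3a2 (0.33, 0.0349), the last of which turned to -0.20 with the scaling as deposited. In control mice the block left the count at 8. In Abca4Ko mice Slc7a5 was also called without retina replicate 1 (-1.05, adjusted p = 0.00433) and Slc7a11 without rod TRAP replicate 1 (-1.52, 0.0308).

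Amino acid transporters outside the set give the wider picture. Of 48 listed, 37 were tested between fractions in control mice. Of these, 24 were lower in rod TRAP, 5 higher and 8 not called, beside 75.4% of all genes called. Their median log2 fold change was -1.14, against -0.03 for all genes. Of the 24 lower genes, 13 had a mean under 0.5 CPM in control rod TRAP and were tested through their retina level alone, so the count and the median lean on the filter. Leaving out 1 retina library lowered the number of genes tested. Without retina replicate 1, 15 of 24 tested genes passed, 4 higher and 11 lower. Without replicate 2 it was 17 of 23 (4 higher, 13 lower), and without replicate 3 it was 18 of 24 (3 higher, 15 lower). Over all runs that left out 1 control library, 9050 to 11453 of all genes passed. The set's own median was 0.33. Steep falls were seen in the GABA transporter Slc6a11 (-6.08, SE 0.21) and in the synaptic vesicle carrier Slc6a17 (-5.77, SE 0.18). Their limma adjusted p were 2.29e-10 and 1.82e-10. Slc6a11 had 26, 39 and 45 scaled counts in control rod TRAP, against 3426, 5297 and 5769 in retina.

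The glutamate transporter Slc1a2 (GLT-1) was highest in rod TRAP relative to retina, at 5895, 5701 and 5632 against 2402, 2826 and 2059 scaled counts (log2 fold change 1.96, SE 0.12, limma adjusted p = 1.38e-08). Slc38a9, a lysosomal arginine sensor, rose by 1.49 (SE 0.15, 1.56e-06) and Slc7a6, which joins Slc3a2, by 0.81 (SE 0.14, 1.28e-04). Slc7a6 was no longer called with the scaling as deposited (0.17, adjusted p = 0.274). In Abca4Ko mice 35 were tested, 3 higher and 23 lower, beside 64.1% of all genes called. The median was -1.47, from -5.96 for Slc6a17 to 1.49 for Slc1a2. Of the 23 lower genes, 10 had a mean under 0.5 CPM in Abca4Ko rod TRAP, so count and median again lean on the filter. With retina replicate 2, retina replicate 3 or both libraries of replicate 3 left out, 14 passed, 3 higher and 11 lower. The genes tested then numbered 25, 25 and 24. Without retina replicate 1, 17 of 25 passed, 3 higher and 14 lower. Of all genes, 6595 of 13396 passed without retina replicate 2 and 5716 of 13150 without both libraries of replicate 3.

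**Figure D4:**
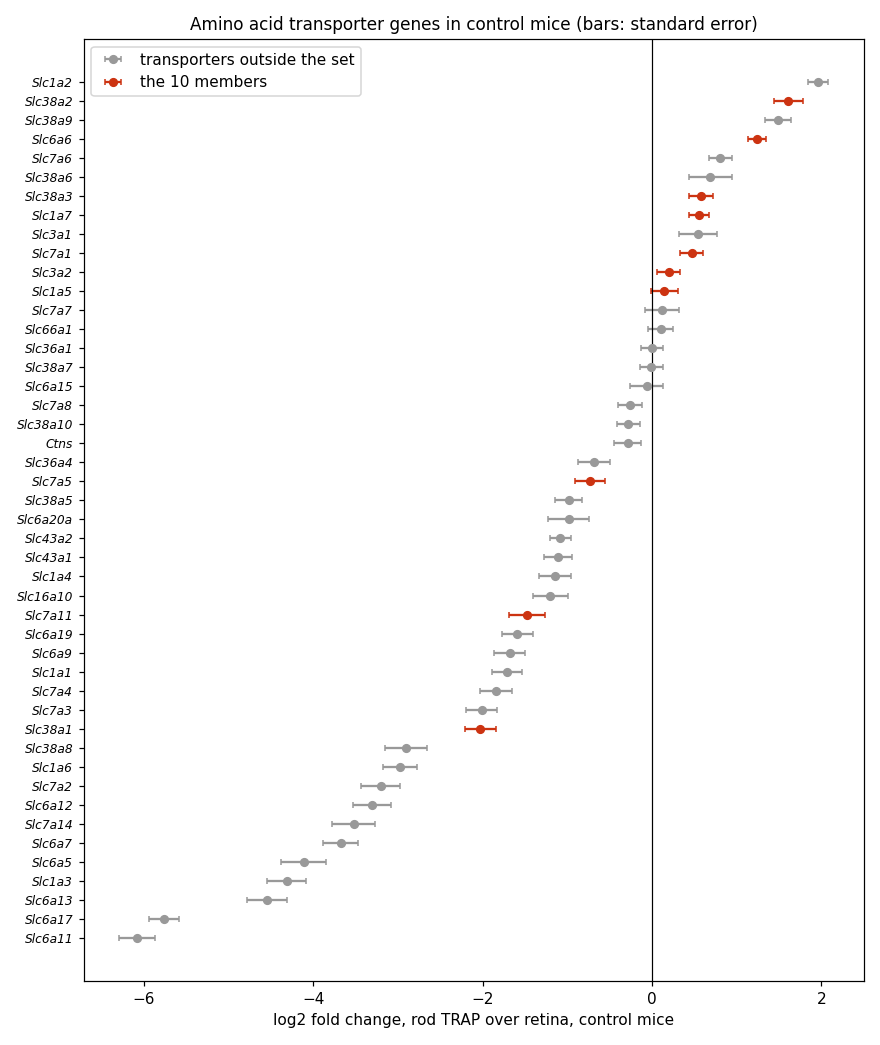
Log2 fold change of rod TRAP over retina in control mice (horizontal axis) for the 10 members and the tested transporters outside the set, less 1 not shown, ordered by value, with the standard error of the fit as bars. Slc1a2 (1.96) and Slc38a2 (1.61) are at the top and Slc6a11 (-6.08) at the bottom; the scaling as deposited turns Slc1a5, Slc7a1, Slc3a2, Slc38a3 and Slc1a7 below 0.

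Between genotypes, 1 of 24 transporters outside the set passed in rod TRAP, beside 1.13% of all genes. That transporter was Slc1a4 (ASCT1), the closest relative of Slc1a5 and a carrier of serine and other neutral amino acids. It had 139, 132 and 104 scaled counts in control rod TRAP and 28, 55 and 67 in Abca4Ko rod TRAP (log2 fold change -1.24, SE 0.24, limma adjusted p = 0.0317). All 3 Abca4Ko libraries lay below the controls, in the direction opposite to Slc1a5. The call was lost in 7 of 15 alternatives, with adjusted p between 0.00142 and 0.244. It was lost with the scaling as deposited, in TPM, in the fit of 12 libraries, without Abca4Ko replicate 2 (adjusted p = 0.0647) and without control replicate 1 (0.219), 2 (0.233) or 3 (0.115). In retina 0 of 38 passed by the limma test, and 4 had an unadjusted p under 0.05, as did 12.0% of all genes. Slc1a4 there had 346, 539 and 526 scaled counts in the control libraries and 167, 477 and 520 in Abca4Ko (-0.40, SE 0.33, limma adjusted p = 0.594).

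The amino acid response list holds Atf4, the kinases Eif2ak3 and Eif2ak4 that act upstream of it, and genes tied to the response when amino acids run short. It gave no call between genotypes with all libraries. In rod TRAP 0 of 27 passed by limma, 6 had an unadjusted p under 0.05 (10.4% of all genes did), and the median was -0.11. Without Abca4Ko rod TRAP replicate 1, a setting that called 594 of 12936 genes, 5 of 27 passed, all 5 lower. In retina 0 of 31 passed, 2 had an unadjusted p under 0.05 (12.0% of all genes did), and the median was -0.16. Between fractions in control mice, 13 of 30 were higher in rod TRAP and 8 lower, beside 75.4% of all genes called. Of those 8, 3 had a mean under 0.5 CPM in rod TRAP and were tested through their retina level alone. The threonyl-tRNA synthetase Tars was higher by 1.62 (SE 0.14, limma adjusted p = 3.44e-07), with 1247, 1280 and 1193 scaled counts against 705, 770 and 516. Vldlr, a lipoprotein receptor, was higher by 2.89 (SE 0.15, 2.92e-09) and the kinase Eif2ak3 (PERK) by 1.34 (SE 0.13, 8.82e-07). The serine synthesis enzyme Psat1 was lower (-3.15, SE 0.19, 9.79e-09). Its partner Phgdh had 2, 2 and 3 scaled counts in rod TRAP against 392, 188 and 252 in retina, and the stress factor Nupr1 had 11, 5 and 3 against 748, 213 and 312. Both were called lower, but lie under the pseudocount of 0.5 CPM in rod TRAP, so their fitted folds depend on it and are not given. In Abca4Ko mice 11 of 31 were higher and 8 lower (2 of them under 0.5 CPM in rod TRAP), beside 64.1% of all genes called. Without both libraries of replicate 3 it was 6 and 4 of 29, beside 5716 of 13150 genes called.

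Enzymes that use the carried amino acids were compared in the same way. By limma 0 of 28 passed between genotypes in rod TRAP (8 at an unadjusted p under 0.05, median 0.07) and 0 of 34 in retina (3 at an unadjusted p under 0.05). Of all genes, 10.4% in rod TRAP and 12.0% in retina had an unadjusted p under 0.05. Without Abca4Ko rod TRAP replicate 1, 3 of 27 passed in rod TRAP, all 3 higher, beside 594 of 12936 genes called at that setting. In control mice 11 of 33 were higher in rod TRAP and 17 lower (75.4% of all genes called). In Abca4Ko mice it was 10 and 17 of 33 (64.1% called). Of the lower genes, 5 in control and 4 in Abca4Ko mice had a mean under 0.5 CPM in rod TRAP. These were tested through their retina level alone, so the counts lean on the filter. The Abca4Ko counts were 6 and 10 of 28 without retina replicate 3. They were 5 and 9 of 28 without both libraries of replicate 3, where 5716 of 13150 genes were called. Glutamine synthetase (Glul), a Müller glia enzyme that makes glutamine from glutamate, was lower, with a log2 fold change of -4.24 (SE 0.18; adjusted p = 7.55e-10 in limma). Its scaled counts were 1232, 1408 and 1477 in control rod TRAP, against 29443, 52953 and 49319 in retina. Azin1, an inhibitor of antizyme, was higher by 1.94 (SE 0.16, 2.38e-07) and the arginase Arg2 by 1.14 (SE 0.15, 1.25e-05). The GABA synthesis enzyme Gad1 was lower (-4.90, SE 0.22, 1.07e-09). The arginine synthesis enzyme Ass1, also called lower, had 6, 4 and 10 scaled counts in rod TRAP, under the pseudocount, against 665, 672 and 776 in retina.

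Genes of amino acid sensing by mTORC1, the kinase complex that leucine and arginine switch on, also gave no call between genotypes by limma, with 0 of 19 in rod TRAP and 0 of 20 in retina. At an unadjusted p under 0.05 there were 2 and 1, beside 10.4% and 12.0% of all genes. Between fractions 8 of 20 were higher in rod TRAP and 5 lower in control mice, beside 75.4% of all genes called. In Abca4Ko mice 6 were higher and 3 lower, beside 64.1%. Of the lower genes, Castor1 had a mean under 0.5 CPM in rod TRAP of both genotypes. Without both libraries of Abca4Ko replicate 3 the counts were 2 and 1 of 19, beside 5716 of 13150 genes called. The interaction called 0 genes of the 4 lists, with 3 of 38 transporters, 2 of 31 response genes, 5 of 34 enzymes and 1 of 20 sensing genes at an unadjusted p under 0.05 in limma, beside 11.3% of all genes.

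Some genes followed the 2 leading members across libraries. Likeness was Pearson's r of log2(CPM + 0.5) over 12 libraries after the mean of each fraction was subtracted. It was taken among 10952 genes with a mean of at least 5 CPM. It is a description, since libraries share a genotype and same-numbered ones may share a mouse. Most like Slc1a5 were Gm47252 (r = 0.961), Chrnb1 (0.948) and Uaca (0.940). Most like Slc7a1 were Slc6a17 (r = 0.964), Sema4d (0.961) and Arhgef7 (0.958). Within the set, less Slc7a11, which was under that mean, Slc38a3 and Slc1a7 (r = 0.859) and Slc7a1 and Slc7a5 (0.809) were the most alike pairs.

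The 10 genes lie on 9 chromosomes, Slc1a5 on chromosome 7 and Slc7a1 on chromosome 5. Of genes tested within 1 Mb of Slc1a5 on the reference, 1 of 26 passed between genotypes in rod TRAP, namely Strn4, a striatin family gene (log2 fold change 0.78, SE 0.11, limma adjusted p = 0.0104). The flanking coding gene Ap2s1 was at -0.04. Of 13 tested near Slc7a1, 1 passed, Gm10167 (1.66, SE 0.24, limma adjusted p = 0.0104), with the flanking Mtus2 and Ubl3 at 0.15 and -0.04. On chromosome 7 as a whole, 2.92% of 924 genes tested passed, beside 1.13% of all genes.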

How the data were processed

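The authors deposited 2 tables with 1 column per library. The first holds a score, here called scaled count: read counts that the authors scaled to 1 total per fraction and rounded to whole numbers, so the original depth is unknown and no counting interval was given. The second deposited table holds TPM, to 1 decimal. Per the submitters' processing notes, reads were handled with CASAVA 1.8.2 and HISAT2 on GRCm39, and DESeq2 and edgeR are named. RNA of cycloheximide-perfused, flash-frozen retinas was amplified with a low-input kit before shearing. How strand and multimapping reads were treated is not given in the sources used here. The members and all gene lists were chosen with earlier results of these data known.

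Scaled counts were rescaled by trimmed means of M values and analysed as log2(CPM + 0.5) in limma 3.58.1 (R 4.3.3; trend, robust). Genes with at least 10 scaled counts in 3 libraries were tested, two-sided, with Benjamini-Hochberg adjustment over all genes and a threshold of 0.05. Because the values are not raw counts, no count model was used. Each genotype or fraction comparison used its own 6 libraries, and the interaction used 12. The fits were tested on simulated data. Of the lists, every gene called between genotypes was named, and between fractions the 3 largest rises and 3 largest falls with at least 5 CPM. Of the items that these rules name, 3 are not reported here. The alternatives were other scalings, a pseudocount of 2, no filter, a filter of 50, log2(TPM + 1), no robust moderation, the replicate block, a fit of 12 libraries, and leaving out each library. Leaving out both libraries of Abca4Ko replicate 3 was added after seeing the data. Where 1 library is left out of a group, the spread is pooled over the libraries that remain.

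Same-numbered rod TRAP and retina libraries deviated together from their group means (correlation over genes 0.160 to 0.289 in control, 0.226 to 0.466 in Abca4Ko), which is taken from the data and not from the labels. Abca4Ko rod TRAP replicate 2 correlated slightly more with retina replicate 3 (0.244) than with its own number (0.226). Promoter windows were read from RefSeq on GRCm38.p6, not the build of the files, and GENCODE M21 was used only for names of neighbouring genes. Python 3.11.15, numpy 2.4.6, pandas 2.3.3 and matplotlib 3.10.9 were used for sequences and figures.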

Additional observations from a re-analysis of the deposited data

How the results depend on the processing

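In log2(TPM + 1), 58 genes passed between genotypes in rod TRAP and 0 members, 38 genes passed in retina, 5 members passed between fractions in control mice, and 3 genes passed the interaction. The fit of all 12 libraries called 94 genes and 1 member in rod TRAP and 62 genes in retina, beside 148, 2 and 18. In retina, no filter on low values gave 33 genes and the filter of 50 scaled counts gave 9. The retina count was 46 with the replicate block, where libraries share only a number between genotypes (correlation over genes -0.391 to -0.02). In rod TRAP the block called 151 genes and 2 members. Between fractions it changed the calls of Slc7a5, Slc7a11 and Slc3a2 in Abca4Ko mice and of no other member. Leaving out 1 library at a time gave 30 to 594 genes and 0 to 3 members in rod TRAP, with the fewest genes without control replicate 2 and the most without Abca4Ko replicate 1. It gave 1 to 21 genes in retina, and 5716 to 9820 genes and 4 to 7 members between fractions in Abca4Ko mice, where the lowest counts leave out both libraries of replicate 3. The cause of these shifts was not tested. Member counts between genotypes in rod TRAP come from the contrast that chose the set, so they only describe how calls move with the processing.

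The following directions turned. With the scaling as deposited, the rod TRAP over retina log2 fold change in control mice was -0.47 for Slc1a5, -0.17 for Slc7a1, -0.45 for Slc3a2, -0.065 for Slc38a3 and -0.093 for Slc1a7, and in Abca4Ko mice -0.30 for Slc7a1 and -0.20 for Slc3a2. In TPM it was -0.13 for Slc1a5 and -0.18 for Slc3a2 in control mice and -0.068 for Slc7a1 in Abca4Ko mice. Leaving out 1 library moved Slc7a1 in Abca4Ko mice between -0.27 and 0.47, and Slc38a1 between genotypes in retina between -0.19 and 0.41. Between genotypes in rod TRAP, leaving out Abca4Ko replicate 1 turned Slc7a5 to 0.008 and Slc3a2 to -0.012. Over its alternatives the interaction took both signs for Slc7a1 (-0.60 to 0.09), Slc7a5 (-0.18 to 0.50) and Slc6a6 (-0.08 to 0.06).

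Slc1a5 and Slc7a1 kept their direction between genotypes in rod TRAP in all 15 alternatives. Both were chosen on this contrast and the alternatives reuse its libraries, so this is a description and not independent support. The members' retina calls stayed at 0 in each alternative run. With 3 libraries a group and totals set by the authors, differences smaller than the spread between libraries were not detectable, and the precision set by read depth is unknown.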
